A study of Mus musculus with 30 samples.

Results

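Transcripts of 10 genes were followed: 8 myosin light chains (Mylpf, Myl2, Myl9, Myl1, Myl3, Myl4, Myl6 and Myl6b) and 2 myosin light chain kinases (Mylk2 and Mylk4). They were taken by name from a table of raw read counts for 55487 mouse genes. The cells were C2C12 myotubes, the multinucleated fibers that form when this established mouse myoblast line is moved to low serum. Every culture was wild type (the genotype given) and spent 4 days differentiating in low glucose medium with 2% horse serum, then 4 more days under its own treatment, 8 days in all. The 5 groups of 6 libraries were 2% HS (myotubes kept in 2% horse serum), SD (no serum), MET (no serum, 100 nM metformin), LEU (no serum, 500 nM leucine) and MET+LEU (no serum, both agents at those doses). Horse serum was thus absent from 4 of the 5 groups during the last 4 days. The culture was a single cell line, and the labels do not say whether the libraries came from separate cultures, so p-values measure the spread between these libraries only.

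A myosin motor is a heavy chain whose neck is stiffened by an essential and a regulatory light chain. In striated muscle the heavy chain pulls on actin, and the light chains tune the lever. A calcium and calmodulin dependent kinase adds phosphate to a serine near the start of the regulatory chain, which turns smooth and non-muscle myosin on and, in skeletal muscle, raises the force of a twitch. Muscle types use different light chain genes. Mylpf (regulatory) and Myl1 (essential) belong to fast skeletal fibers, Myl2 and Myl3 to slow skeletal fibers and the heart ventricle, and Myl4 to embryonic muscle and the atrium. Myl9, Myl6 and Myl6b serve smooth muscle and non-muscle myosin, with Myl6b also found in slow muscle. Mylk2 is the kinase of skeletal muscle, and Mylk4 is a less studied member of the same family.

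The libraries held between 12784960 and 19604103 counts on genes, of which the 10 genes together took 0.344% to 0.532%. Of all genes, 15907 had enough counts to be tested (at least 10 counts in about the number of libraries of a group), among them 9 of the 10, all but Myl3. Levels are given as CPM, counts scaled to a common library size by TMM, a method that equalizes libraries on the bulk of their genes. Fold changes come from edgeR's quasi-likelihood test, fitted to all 30 libraries. The p-values were adjusted by the Benjamini-Hochberg method across the 15907 genes, and a gene was called where the adjusted p was under 0.05. Markers of myotubes were abundant in every library, with at least 11055 counts of the muscle transcription factor Myog and at least 32636 of skeletal actin Acta1. Some markers of other muscles were nearly absent. The atrial peptide Nppa had 0 to 1 count and the ventricular peptide Nppb 0 to 3. Smooth muscle myosin Myh11 had 0 to 11 and the smooth muscle cofactor Myocd 0 to 4. The cardiac markers Myh6 (164 to 583), Gata4 (122 to 254) and Tnni3 (8 to 40) had counts in every library. So did the smooth muscle markers Actg2 (252 to 666) and Smtn (1187 to 2373). MET+LEU replicate 6 carried 5.85% of its counts on nuclear and 7.64% on mitochondrial ribosomal RNA, where the other libraries reached at most 1.96% and 0.760%. The mitochondrial share also moved with the groups. It was 0.219% to 0.306% in 2% HS, 0.281% to 0.367% in SD, 0.244% to 0.705% in MET and 0.501% to 0.710% in LEU, and at least 0.649% in MET+LEU, so LEU and MET+LEU did not overlap with SD. In bulk RNA, fewer cells of a type and less RNA per cell cannot be told apart, and this holds for every result that follows.

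The coding start of the regulatory chains is shown because it holds the serine that the kinases phosphorylate. The bases run from the start codon in lower case, with the codon of that serine in capitals.
Mylpf: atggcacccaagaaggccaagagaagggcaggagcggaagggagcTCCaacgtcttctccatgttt
Myl2: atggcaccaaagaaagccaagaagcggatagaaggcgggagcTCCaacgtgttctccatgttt
Myl9: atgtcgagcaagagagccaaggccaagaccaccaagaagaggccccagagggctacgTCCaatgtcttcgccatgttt
The serine is codon 16 of Mylpf (chr7:127212903-127212905 of GRCm38, plus strand), codon 15 of Myl2 (chr5:122101788-122101790, plus strand) and codon 20 of Myl9 (chr2:156778602-156778604, plus strand), counting the start codon as 1. The stretch after it was nearly the same in Mylpf and Myl2, and the stretch before it was longest in Myl9. Over the whole coding sequence, Mylpf was identical to Myl2 at 69.7% of aligned columns and to Myl9 at 63.6%. None of these 3 genes shared a run of 75 bases with another annotated transcript, so reads of that length can be told apart.

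Compared per kilobase of exon, the fast chains stood far above the others. In 2% HS the level per kilobase was 1364 ± 86.6 CPM (SD, n = 6) for Mylpf and 590.0 ± 27.4 for Myl1. Myl4 followed at 197 ± 10.8, Myl6b at 160.0 ± 6.17, Myl9 at 65.5 ± 4.59 and Myl6 at 47.5 ± 3.06. The kinases lay lower, at 13.6 ± 1.09 for Mylk2 and 13.6 ± 0.743 for Mylk4, and their ranges over the libraries overlapped. Myl2 was at 7.84 ± 0.599. All other neighbors in this order had ranges that did not overlap in 2% HS. The order depended on the length used for some genes. Myl4 has 4637 bases of merged exons but only 943 in its principal transcript (the annotation's main isoform), and on the latter its level rose to 971 CPM per kilobase. On principal transcripts Myl6 reached 228 and stood above Myl9 at 67.5, and Myl2 at 17.2 stood above Mylk2 at 13.6. Mylpf and Myl1 led under each of the 3 lengths.

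**Figure D1:**
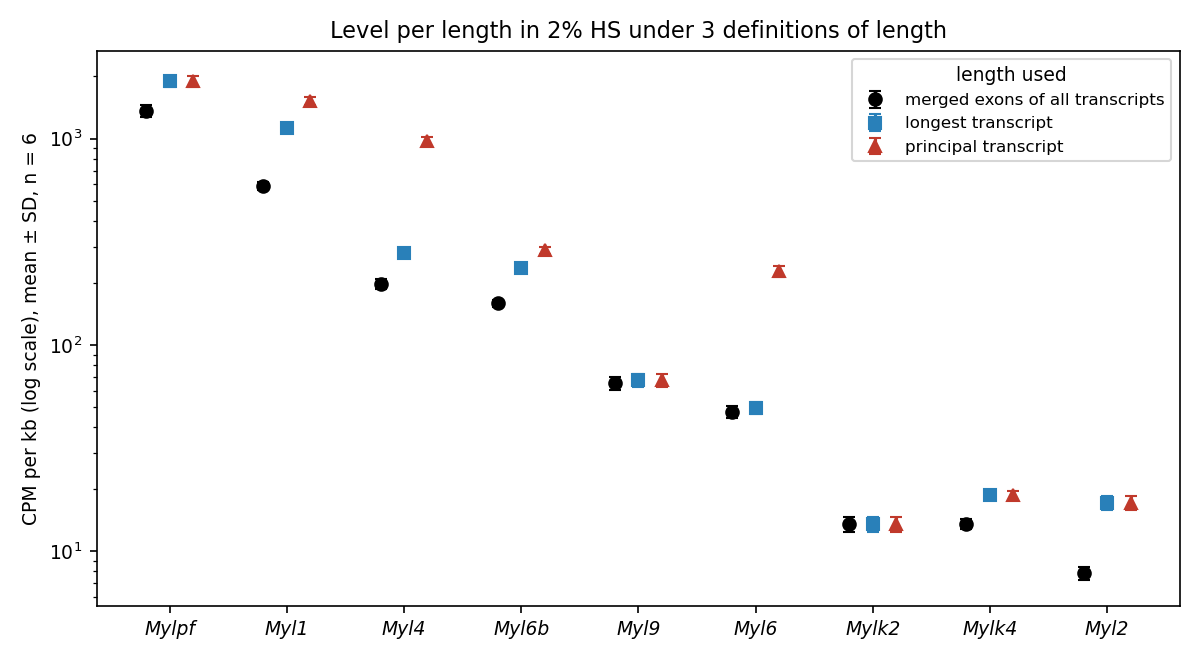
CPM per kilobase in 2% HS (log scale, mean ± SD of 6 libraries) for 9 genes, with the length taken from merged exons, the longest transcript or the principal transcript. Mylpf and Myl1 lie highest under each length, while Myl4 moves from 197 to 971 and Myl6 from 47.5 to 228 CPM per kilobase between merged exons and the principal transcript.

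Among the regulatory chains, Mylpf was the main transcript in every group while Myl2 and Myl9 fell without serum. Mylpf (ENSMUSG00000030672, chr7:127208890-127214298 of GRCm38, plus strand) ranged from 1332 to 1556 CPM in 2% HS (median 1453). It ranged from 1443 to 1942 in SD (median 1560.0), from 1551 to 1821 in MET (median 1668), from 1564 to 1643 in LEU (median 1597) and from 1528 to 1985 in MET+LEU (median 1760.0). The lowest SD, MET and MET+LEU libraries lay within the 2% HS range, and every LEU library lay above it. In SD vs. 2% HS the log2 fold change was 0.18 ± 0.07 (SE; adjusted p = 0.0383), and this call was lost when any of 2% HS replicates 1, 2, 4 and 6 or SD replicates 1 and 3 was left out (adjusted p from 0.0541 to 0.125). It was also lost in a fit of only those 2 groups (adjusted p = 0.092) and when all genes with more than 5 counts in total were kept (adjusted p = 0.0764).

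Myl2 (ENSMUSG00000013936, chr5:122100951-122113472, plus strand) is the regulatory chain of slow fibers and the ventricle, and it was a minor transcript here. It ranged from 13.9 to 16.7 CPM in 2% HS (median 15.6) and from 5.85 to 9.68 in SD (median 8.02), with no overlap. In MET it ranged from 5.89 to 8.25 (median 6.42), in LEU from 7.60 to 8.41 (median 8.07) and in MET+LEU from 8.20 to 14.8 (median 10.9). Myl2 was downregulated in SD vs. 2% HS by 0.93 ± 0.11 on the log2 scale (a log2 fold change of -0.93, adjusted p = 1.7e-09), a level that fell by 47.5%. In MET+LEU it was upregulated vs. SD by a log2 fold change of 0.49 ± 0.11 (adjusted p = 0.00123), vs. MET by 0.74 ± 0.11 (adjusted p = 3.9e-05) and vs. LEU by 0.48 ± 0.11 (adjusted p = 0.00629). The MET+LEU range reached into those of SD, MET and LEU at its low end. MET+LEU still lay below 2% HS (log2 fold change -0.44 ± 0.11, adjusted p = 7.0e-04), with some overlap. Each of these 5 Myl2 calls held with each library left out in turn. The annotation has 60 exon bases of Myl2 opposite exons of Ccdc63, and the strand setting of the counting is not given in the sources used here.

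Myl9 (ENSMUSG00000067818, chr2:156775420-156781658, plus strand), the regulatory chain of smooth muscle and non-muscle myosin, ranged from 69.02 to 82.03 CPM in 2% HS (median 77.8). Every serum-free library lay below that range. It ranged from 51.1 to 62.8 in SD (median 54.7), from 50.5 to 60.0 in MET (median 54.5), from 52.1 to 58.7 in LEU (median 54.9) and from 51.4 to 64.2 in MET+LEU (median 59.5). In SD vs. 2% HS the log2 fold change was -0.45 ± 0.05 (adjusted p = 1.1e-09). Between MET+LEU and SD it was 0.07 ± 0.05 (95% confidence interval -0.04 to 0.17, adjusted p = 0.413), and MET+LEU lay below 2% HS (-0.38 ± 0.05, adjusted p = 3.9e-08). Summed over the 3 regulatory chains per kilobase, Mylpf made up 94.6% to 95.2% in the 2% HS libraries and 96.4% to 97.2% in those of SD. Myl9 made up 4.25% to 4.88% and 2.61% to 3.35%, and Myl2 at most 0.593% in any library.

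**Figure D2:**
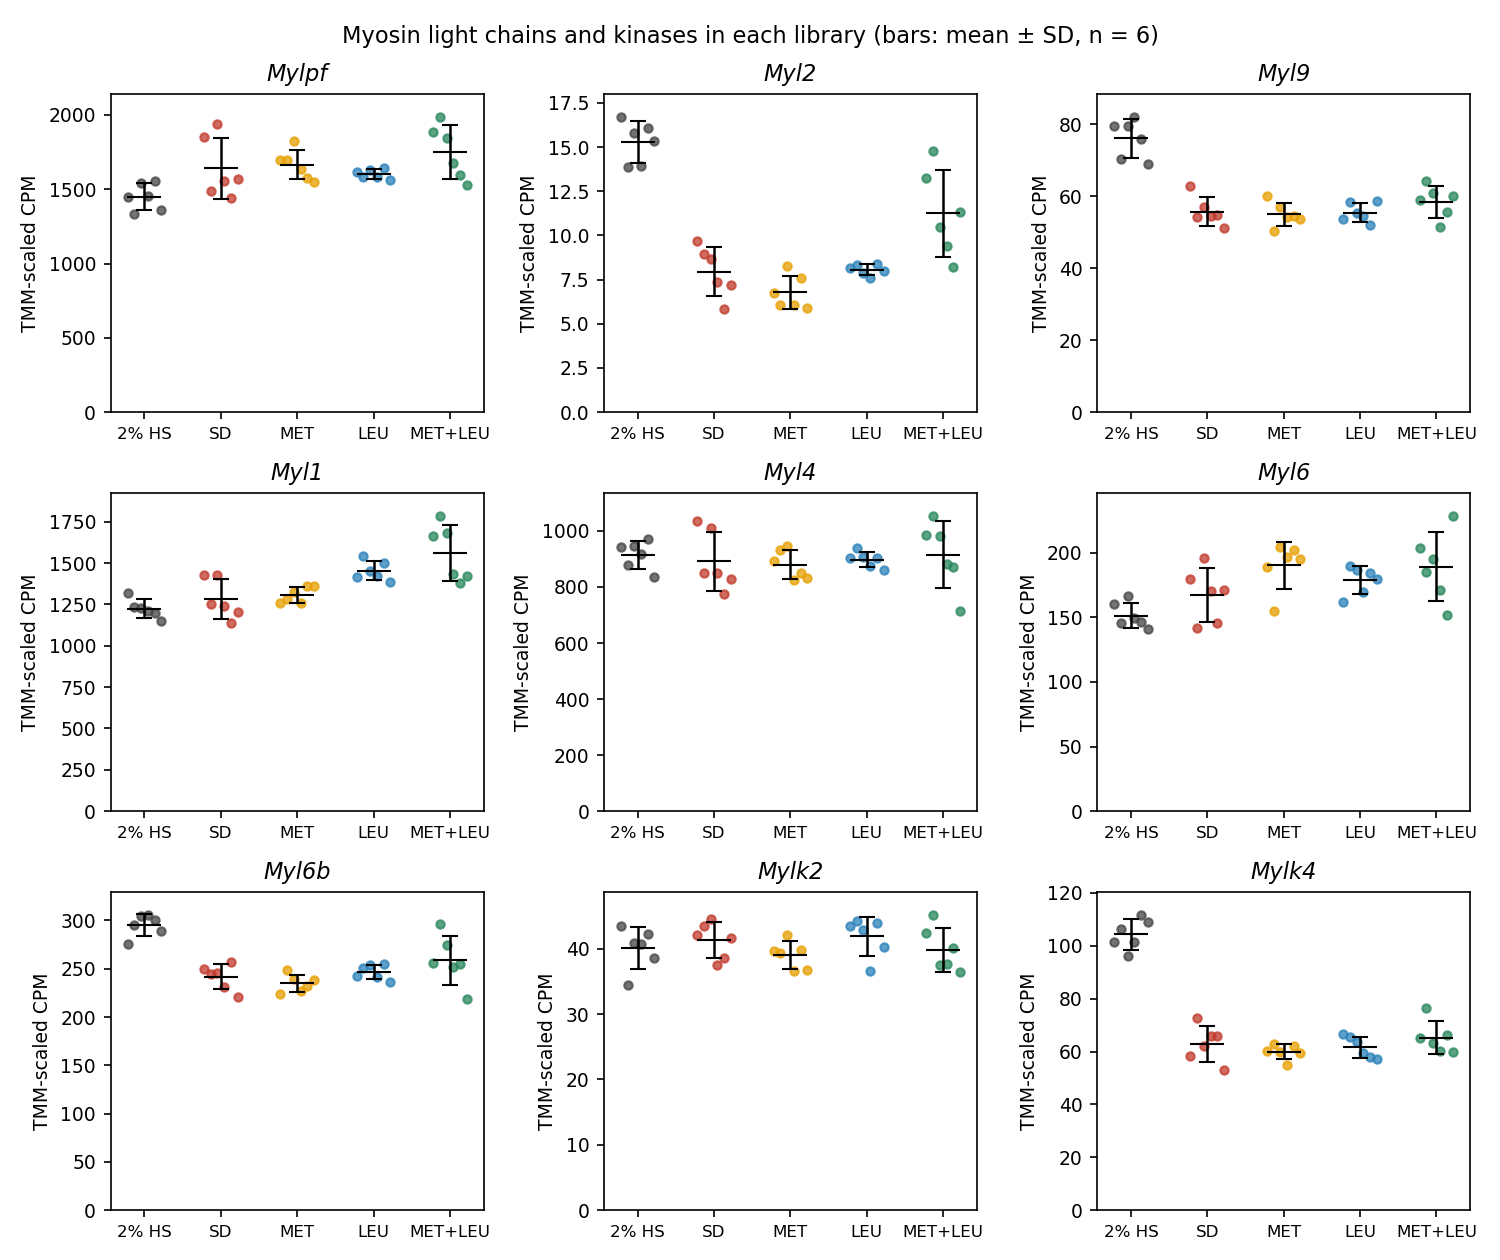
TMM-scaled CPM of 9 genes in each library (points; linear axes from 0), with the mean ± SD of the 6 libraries of each group. Myl2, Myl9, Myl6b and Mylk4 lie higher in 2% HS than in SD without overlap, Myl1 is highest in MET+LEU on average (1561 CPM), and the ranges of Mylk2 and of Myl4 overlap between all 5 groups.

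Among the essential chains, Myl1 rose with MET+LEU, Myl6b fell without serum, Myl6 was higher in each treated serum-free group than in 2% HS, Myl4 was called in no comparison, and Myl3 was close to 0. Myl1 (ENSMUSG00000061816, chr1:66924295-66945404, minus strand), the fast skeletal chain, ranged from 1149 to 1321 CPM in 2% HS (median 1221). It ranged from 1135 to 1427 in SD (median 1246), from 1256 to 1364 in MET (median 1305), from 1384 to 1539.8 in LEU (median 1438) and from 1382 to 1784 in MET+LEU (median 1549). The LEU and MET+LEU libraries all lay above the 2% HS range, and both groups overlapped with SD. The log2 fold change was 0.07 ± 0.05 in SD vs. 2% HS (adjusted p = 0.396). It was 0.29 ± 0.05 in MET+LEU vs. SD (adjusted p = 2.9e-04) and 0.26 ± 0.05 in MET+LEU vs. MET (adjusted p = 0.0032). MET+LEU vs. LEU gave 0.10 ± 0.05 (interval -0.01 to 0.21, adjusted p = 0.266). Mitochondrial ribosomal RNA took a larger share in LEU and MET+LEU than in SD and 2% HS, as given above. With ribosomal RNA genes left out of the library sizes, the Myl1 change was 0.28 in MET+LEU vs. SD (adjusted p = 3.5e-04), 0.25 in MET+LEU vs. MET (adjusted p = 0.00444) and 0.25 in LEU vs. 2% HS (adjusted p = 4.4e-04). Gene counts do not separate the long and short Myl1 proteins, which start at different promoters. Of the gene's 75-base windows 8.08% also occur in Mylf-ps, so reads from that copy could add to or be lost from its count.

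Myl6b (ENSMUSG00000039824, chr10:128494157-128498685, minus strand) ranged from 275 to 306 CPM in 2% HS (median 298) and from 221 to 257 in SD (median 245), with no overlap. It ranged from 224 to 249 in MET (median 236), from 237 to 254 in LEU (median 246) and from 219 to 296 in MET+LEU (median 256). The log2 fold change was -0.29 ± 0.04 in SD vs. 2% HS (adjusted p = 8.9e-07), against 0.10 ± 0.04 in MET+LEU vs. SD (adjusted p = 0.111). The lowest MET+LEU library, at 219 CPM, lay below every SD library. Without MET+LEU replicate 6, the library rich in ribosomal RNA, the MET+LEU vs. SD change of Myl6b was 0.14 and passed (adjusted p = 0.00695). In MET+LEU vs. MET it was called (0.14 ± 0.04, adjusted p = 0.0372), but not when any of 2% HS replicate 4, MET replicates 1, 3, 4 and 5 or MET+LEU replicates 1 to 5 was left out (adjusted p from 0.0521 to 0.136). It was also lost in a fit of only those groups (adjusted p = 0.182), with upper-quartile scaling (0.0596), with library sizes that leave out ribosomal RNA (0.0547) and when all genes with more than 5 counts in total were kept (0.0647).

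Myl6 (ENSMUSG00000090841, chr10:128490860-128494145, minus strand) lies next to Myl6b on the same strand. It ranged from 141 to 166 CPM in 2% HS (median 148), from 142 to 196 in SD (median 171), from 155 to 204 in MET (median 196), from 161 to 189 in LEU (median 182) and from 152 to 228 in MET+LEU (median 190.1). Every group overlapped with 2% HS. For SD vs. 2% HS the log2 fold change was 0.15 ± 0.09 (adjusted p = 0.221). It was 0.33 ± 0.09 in MET vs. 2% HS (adjusted p = 0.00343) and 0.32 ± 0.09 in MET+LEU vs. 2% HS (adjusted p = 0.00348). In LEU vs. 2% HS it was 0.24 ± 0.09 (adjusted p = 0.0366), a call lost when any of 2% HS replicates 2, 4, 5 and 6 or LEU replicates 2, 3, 5 and 6 was left out (adjusted p from 0.0537 to 0.0777), or when all genes with more than 5 counts in total were kept (0.0518). Of its 75-base windows 5.42% also occur in 5 other annotated genes, so its count is less certain.

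Myl4 (ENSMUSG00000061086, chr11:104550663-104595753, plus strand), the embryonic and atrial chain, ranged from 836 to 972 CPM in 2% HS (median 929), from 774 to 1037 in SD (median 851), from 827 to 946 in MET (median 871), from 860.0 to 938 in LEU (median 903) and from 716 to 1053 in MET+LEU (median 931). All groups overlapped. Its log2 fold change was -0.04 ± 0.07 in SD vs. 2% HS (interval -0.19 to 0.11) and 0.04 ± 0.07 in MET+LEU vs. SD (interval -0.11 to 0.18). Myl3 (ENSMUSG00000059741, chr9:110741861-110769798, plus strand), the slow and ventricular partner of Myl2, had 0 to 6 counts a library and none in 13 of the 30. Its counts summed to 15 in 2% HS (5 of 6 libraries had any), 6 in SD (3 of 6), 4 in MET (3 of 6), 7 in LEU (4 of 6) and 3 in MET+LEU (2 of 6), and the ranges of all groups overlapped. Differences between groups were not tested for this gene, which had too few counts to enter the fit. A count of 0 allows up to 3 counts, or 0.153 to 0.235 CPM, which covers counting error only. Within the essential chains per kilobase of merged exons, Myl1 made up 58.0% to 61.3% in 2% HS, 60.9% to 62.6% in SD and 64.1% to 66.6% in MET+LEU. The share depends on the length used. On the longest transcripts it was 65.3% to 68.5%, 68.1% to 69.8% and 71.0% to 73.7% in the same groups. On principal transcripts no share was computed, and Myl1 stood at 1524 and Myl4 at 971 CPM per kilobase in 2% HS.

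Of the kinases, Mylk4 fell without serum and Mylk2 was called in no comparison. Mylk4 (ENSMUSG00000044951, chr13:32700834-32783954, minus strand) ranged from 95.9 to 112 CPM in 2% HS (median 104) and from 53.1 to 72.6 in SD (median 63.8). It ranged from 54.9 to 63.0 in MET (median 59.9), from 57.0 to 66.5 in LEU (median 61.4) and from 59.9 to 76.6 in MET+LEU (median 64.1). No serum-free library reached the 2% HS range. The log2 fold change was -0.73 ± 0.06 in SD vs. 2% HS (adjusted p = 6.3e-14), against 0.05 ± 0.06 in MET+LEU vs. SD (interval -0.06 to 0.17, adjusted p = 0.571). Mylk2 (ENSMUSG00000027470, chr2:152911352-152923068, plus strand) ranged from 34.4 to 43.4 CPM in 2% HS (median 40.9), from 37.5 to 44.6 in SD (median 41.9), from 36.6 to 42.1 in MET (median 39.5), from 36.5 to 44.3 in LEU (median 43.2) and from 36.4 to 45.1 in MET+LEU (median 38.9). All groups overlapped, and its log2 fold change in SD vs. 2% HS was 0.04 ± 0.06 (interval -0.07 to 0.16).

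The bases just before a RefSeq transcription start are shown for the kinase that fell most (Mylk4), a regulatory chain that fell (Myl9) and one that did not (Mylpf). They are RefSeq windows of 250 bases on GRCm38.p6, in which capitals mark E-boxes (CANNTG, the letters that myogenic factors such as MyoD recognize), MEF2 boxes and CArG boxes (read by the serum response factor SRF), searched on both strands.
Mylk4: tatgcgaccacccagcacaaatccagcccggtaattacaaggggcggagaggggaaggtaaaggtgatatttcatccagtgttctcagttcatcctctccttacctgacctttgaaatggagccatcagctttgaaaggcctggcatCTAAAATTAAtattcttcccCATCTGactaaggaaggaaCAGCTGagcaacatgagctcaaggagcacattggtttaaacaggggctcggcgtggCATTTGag
Myl9: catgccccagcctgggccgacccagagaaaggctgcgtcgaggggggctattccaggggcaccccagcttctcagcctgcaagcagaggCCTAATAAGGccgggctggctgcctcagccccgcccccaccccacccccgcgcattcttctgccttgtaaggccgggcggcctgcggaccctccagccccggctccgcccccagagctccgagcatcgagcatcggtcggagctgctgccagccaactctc
Mylpf: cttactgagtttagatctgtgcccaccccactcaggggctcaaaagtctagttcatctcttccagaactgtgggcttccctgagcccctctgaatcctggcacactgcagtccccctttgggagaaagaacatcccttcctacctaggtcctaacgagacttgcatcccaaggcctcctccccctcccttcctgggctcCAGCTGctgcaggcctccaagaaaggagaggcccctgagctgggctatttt
The windows are chr13:32783965-32784214 (minus strand) for Mylk4, chr2:156775214-156775463 (plus strand) for Myl9 and chr7:127211358-127211607 (plus strand) for Mylpf. The Myl9 window ends past the gene start given above (chr2:156775420). The Mylpf window lies inside the gene span given above (chr7:127208890-127214298). For these genes the RefSeq start thus differs from the start of the gene as placed above. Mylk4 held 3 E-boxes and 1 MEF2 box, Myl9 held 1 CArG box and Mylpf 1 E-box, with no base in 2 motifs. Of 32851 RefSeq promoter windows of this length, 66.2% held at least 1 E-box, 12.2% at least 3, 2.92% a MEF2 box and 1.47% a CArG box. Among members not shown, the windows of Myl2, which fell more than Myl9, held no MEF2 or CArG box. They end at chr5:122092723 and chr5:122093188, upstream of the gene start given above (chr5:122100951). The bases just before that start were not searched. A CArG box was also in a window of Myl6, which was not called lower, and of Myl3, which was not tested. These matches describe letters only and show no binding.

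Counted by comparison, SD vs. 2% HS had 1 of the 9 tested members higher and 4 lower, where 13.9% of all genes tested were higher and 13.9% lower. The median log2 fold change was -0.04 over the 9 members and 0.003 over all genes. In MET vs. SD none was called (0.157% of all genes were), with 2 members at an unadjusted p under 0.05: Myl2 (-0.24 ± 0.12, adjusted p = 0.473) and Myl6 (0.18 ± 0.08, adjusted p = 0.465). In LEU vs. SD none was called (0.553% of all genes were), with Myl1 alone at an unadjusted p under 0.05 (0.18 ± 0.05, adjusted p = 0.142). A fit of only LEU and SD did call Myl1 (0.19, adjusted p = 0.0390), as did limma-voom with sample quality weights (0.20, adjusted p = 0.0108). DESeq2 called no member in either of these comparisons. In MET vs. SD it gave Myl2 no adjusted p, so it could not have called that gene.

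For MET+LEU vs. SD, 2 of the 9 were upregulated (Myl2 and Myl1) and none downregulated, where 10.6% of all genes were higher and 7.8% lower. With an offset for the GC content of each gene the count was 4, with Myl9 (0.14, adjusted p = 0.0341) and Myl6b (0.13, adjusted p = 0.00713) added. MET+LEU vs. MET gave 3 upregulated members, where 5.54% of all genes were higher, and MET+LEU vs. LEU gave 1, where 4.61% were. The interaction asks whether the effect of both agents differs from the sum of their separate effects. It called no member with edgeR (0.0503% of all genes were), with 1 at an unadjusted p under 0.05. With edgeR, Myl2 came closest at 0.73 ± 0.16 (interval 0.40 to 1.05, adjusted p = 0.0701). It passed when SD replicate 5, MET replicate 3 or MET+LEU replicate 5 was left out (adjusted p from 0.0224 to 0.0427). DESeq2 called no member either, but it gave Myl2 no adjusted p here, so it could not have called that gene.

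Against 2% HS, the serum-free groups with agents shared those control libraries with SD. MET+LEU vs. 2% HS had 3 members upregulated (Mylpf, Myl1 and Myl6) and 4 downregulated, where 22.1% of all genes were higher and 20.3% lower. MET vs. 2% HS had 2 upregulated (Mylpf and Myl6) and 4 downregulated, where 17.4% and 17.5% of all genes were. LEU vs. 2% HS had 2 upregulated (Myl1 and Myl6) and 4 downregulated, where 14.4% and 15.3% were. The downregulated members were Myl2, Myl9, Myl6b and Mylk4 in each. The log2 fold change of Mylk4 was -0.80 ± 0.06 for MET, -0.76 ± 0.06 for LEU and -0.67 ± 0.06 for both agents. For Myl2 it was -1.18 ± 0.11 (MET), -0.92 ± 0.11 (LEU) and -0.44 ± 0.11 (both).

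**Figure D3:**
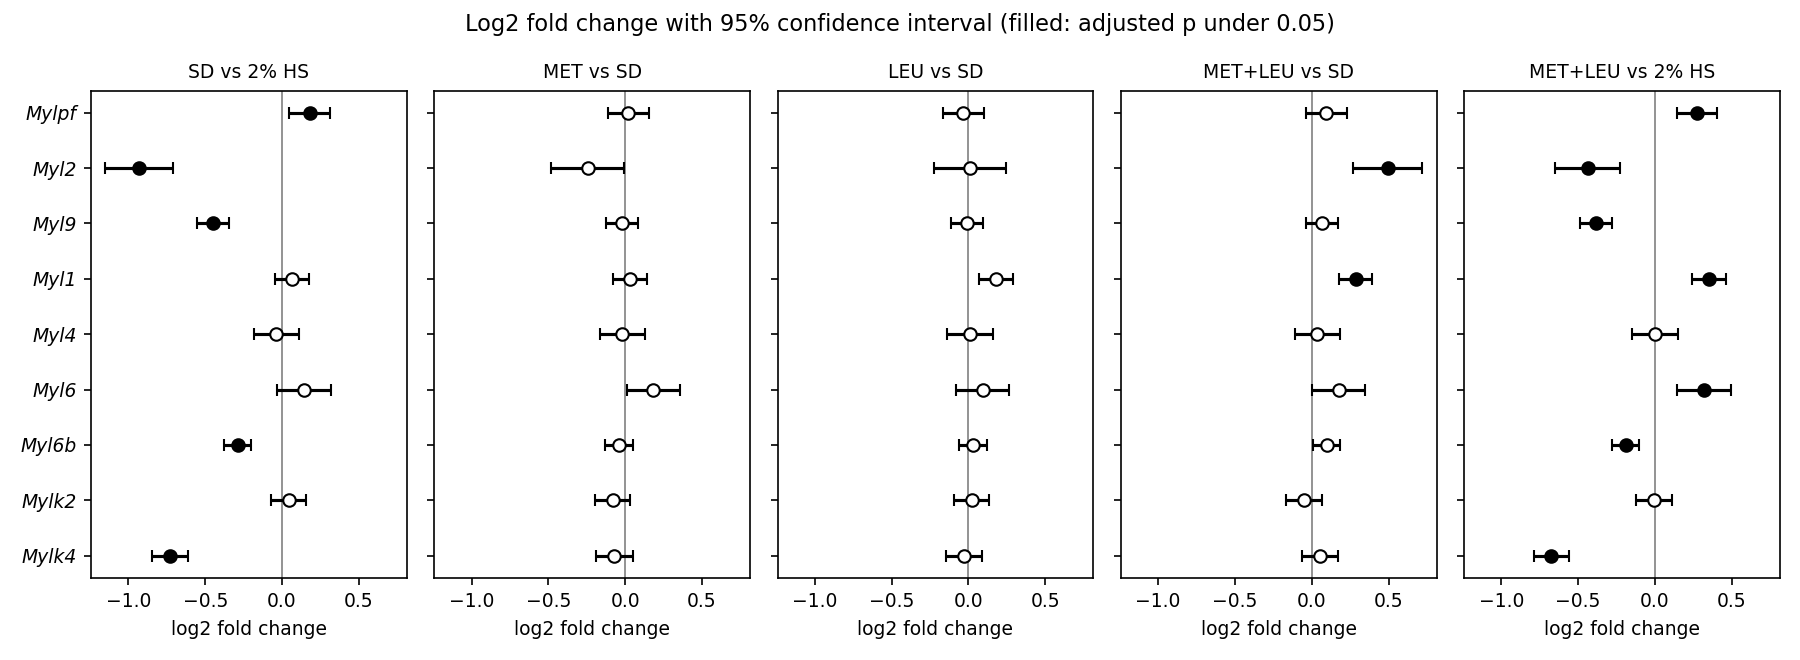
Log2 fold change (point) with its 95% confidence interval for 9 genes in 5 comparisons, filled where the adjusted p was under 0.05. Myl2 (0.49) and Myl1 (0.29) are the filled points in MET+LEU vs. SD, and no point is filled in MET vs. SD or LEU vs. SD.

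Whether members moved apart was asked of 7 ratios taken within each library, which do not depend on scaling, in SD vs. 2% HS and MET+LEU vs. SD (14 two-sided exact permutation tests over the libraries). The smallest p that 6 against 6 libraries allow is 0.00216. The log2 ratio of Mylk4 over Mylk2 ranged from 1.22 to 1.63 in 2% HS and from 0.35 to 0.81 in SD, with no overlap. It was 0.78 lower in SD (a difference of -0.78, exact permutation p = 0.00216, adjusted over the 14 tests p = 0.00606). Between MET+LEU and SD it differed by 0.11 (exact permutation p = 0.214). Myl9 over Mylpf differed by -0.62 in SD vs. 2% HS (exact permutation p = 0.00216), with no overlap, and by -0.03 in MET+LEU vs. SD (exact permutation p = 0.704).

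Within the essential chains, Myl4 was lower relative to Myl1 in both comparisons. The log2 ratio of Myl4 over Myl1 differed by -0.11 in SD vs. 2% HS (exact permutation p = 0.00866, adjusted p = 0.0173), against by -0.25 in MET+LEU vs. SD (exact permutation p = 0.00216, adjusted p = 0.00606), the latter without overlap. Myl1 over Mylpf, the fast pair, differed by -0.11 in SD vs. 2% HS (exact permutation p = 0.0584). With MET+LEU against SD it differed by 0.19 (exact permutation p = 0.00216, adjusted p = 0.00606), with no overlap. Myl2 over Mylpf, slow over fast, differed by -1.13 in SD vs. 2% HS (exact permutation p = 0.00216) and by 0.39 in MET+LEU vs. SD (exact permutation p = 0.0152, adjusted p = 0.0265). Myl6b over Myl6 differed by -0.43 in SD vs. 2% HS (exact permutation p = 0.00649, adjusted p = 0.0152), against by -0.08 in MET+LEU vs. SD (exact permutation p = 0.617). Mylk2 over Mylpf differed by -0.13 in SD vs. 2% HS (exact permutation p = 0.0931) and by -0.15 in MET+LEU vs. SD (exact permutation p = 0.0584). The former had an unadjusted p under 0.05 without SD replicate 2 (-0.17, exact permutation p = 0.0195). The latter had one without SD replicate 1, SD replicate 3 or MET+LEU replicate 5 (exact permutation p = 0.0368 each). Myl1 over Mylpf in SD vs. 2% HS passed without SD replicate 2, 2% HS replicate 3 or 2% HS replicate 5 (exact permutation p = 0.0325, 0.0433 and 0.0152).

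**Figure D4:**
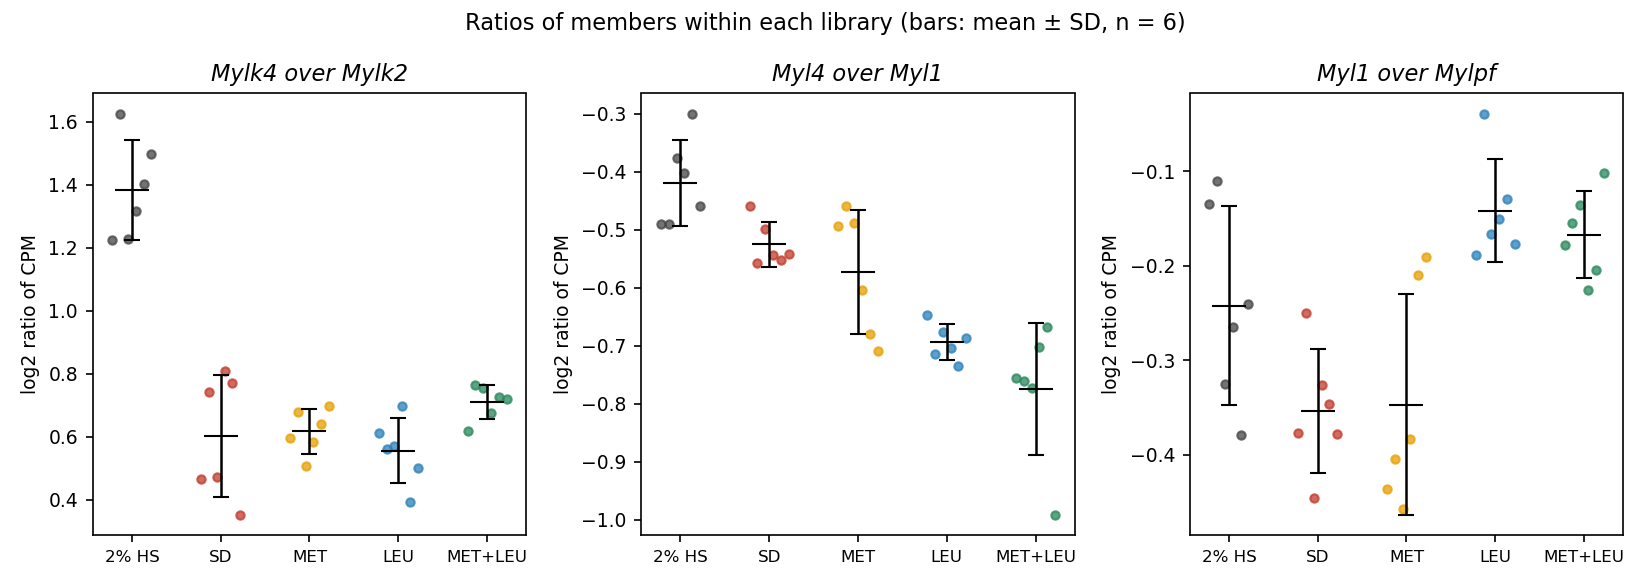
Log2 ratio of CPM within each library for Mylk4 over Mylk2, Myl4 over Myl1 and Myl1 over Mylpf (points), with the mean ± SD of 6 libraries a group. Mylk4 over Mylk2 drops from a mean of 1.38 in 2% HS to 0.60 in SD, and Myl4 over Myl1 is lowest in MET+LEU at -0.78.

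The heavy chains that these light chains bind were counted beside them. Of all genes tested, 13.9% were higher and 13.9% lower in SD vs. 2% HS. In MET+LEU vs. SD, 10.6% were higher and 7.8% lower. Of 10 sarcomeric heavy chains tested, 5 were downregulated and none upregulated in SD vs. 2% HS (median -0.36, against 0.003 for all genes). Among those called, the largest changes were in the slow and cardiac chains Myh7 (-0.66 ± 0.08, adjusted p = 1.2e-07), Myh7b (-0.54 ± 0.08, adjusted p = 1.9e-06) and Myh6 (-0.53 ± 0.18, adjusted p = 0.0285). Myh1, a fast chain (-0.39, adjusted p = 1.9e-06), and Myh4 (-0.32, adjusted p = 0.0123) were downregulated as well. With MET+LEU against SD, 7 were upregulated (median 0.41, against -0.005), among them Myh6 (0.78 ± 0.18, adjusted p = 0.00296), the fast chain Myh1 (0.46 ± 0.06, adjusted p = 1.7e-06) and Myh4 (0.44 ± 0.09, adjusted p = 0.0016). In a fit of only those groups the count was 4 and Myh6 was not called. LEU vs. SD called 1 heavy chain (Myh1, 0.25), and MET vs. SD called no gene of any related list with edgeR, where 1 of 2 other light chains, 2 of 6 phosphatase genes and 3 of 7 smooth muscle genes had an unadjusted p under 0.05. Of 7 smooth muscle contractile genes tested, 6 were downregulated in SD vs. 2% HS, as Myl9 was, where 13.9% of all genes were lower. Among them were calponin Cnn1 (-0.95 ± 0.21, adjusted p = 4.4e-04), Lmod1 (-0.37 ± 0.13, adjusted p = 0.021) and actin Acta2 (-0.33 ± 0.04, adjusted p = 5.9e-09). Cnn1 (1.45 CPM in SD, 2.85 in 2% HS) and Lmod1 (4.87 and 6.28) were at low levels. Tagln was not called (0.09 ± 0.07, adjusted p = 0.402). Against SD, MET+LEU had 1 of the 7 higher (Lmod1, 0.49 ± 0.13, adjusted p = 0.00426) and 1 lower (Srf, -0.16 ± 0.05, adjusted p = 0.0177, lost without SD replicate 1, with limma-voom, with the GC offset and in a fit of only those groups). Of 3 smooth and non-muscle heavy chains tested, 1 fell without serum (Myh14, -0.88 ± 0.15, adjusted p = 6.0e-06) and 1 rose with MET+LEU vs. SD (Myh9, 0.22 ± 0.04, adjusted p = 3.8e-04), a count that was 2 without SD replicate 1 or MET+LEU replicate 4, with a replicate block and with the GC offset.

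Other light chains and enzymes of the same step were read from the same fit. Of other regulatory chains, Myl7 (atrial) had 0 counts and Myl10 0 to 5. Of the non-muscle chains, Myl12a had 2866 to 5069 counts a library and Myl12b 152 to 339. Myl12a had a mean of 249 CPM in 2% HS, above Myl9 at 76.1, and is left out of the regulatory chain shares above. It changed by -0.12 ± 0.04 in SD vs. 2% HS (adjusted p = 0.0116) and by 0.15 ± 0.04 in MET+LEU vs. SD (adjusted p = 0.00201). Myl12b changed by 0.35 ± 0.09 in MET+LEU vs. SD (adjusted p = 0.00447). Of 5 other kinases of the regulatory chain, 1 was downregulated in SD vs. 2% HS, the smooth muscle kinase Mylk (-0.62 ± 0.09, adjusted p = 2.7e-07), a count that was 2 when any of 2% HS replicates 3 and 6, SD replicates 2, 4 and 5, LEU replicate 2 or MET+LEU replicate 6 was left out. It was also 2 in 6 processing alternatives (upper-quartile scaling, DESeq2, limma-voom, at least 10 counts in every library, only the groups compared and no robust option) and 3 with a replicate block. MET+LEU vs. SD had 2 upregulated, the kinases Rock1 (0.27 ± 0.05, adjusted p = 2.7e-04) and Rock2 (0.24 ± 0.05, adjusted p = 1.6e-04). Of 6 genes of the light chain phosphatase and its inhibitors tested, 1 was higher (Ppp1r12c, 0.13 ± 0.05) and 2 lower (Ppp1r14c, -0.20 ± 0.06, and Ppp1r12b, -0.11 ± 0.03) in SD vs. 2% HS, and none was called in MET+LEU vs. SD (lowest adjusted p = 0.0538, for Ppp1r12a, with 2 at an unadjusted p under 0.05). The phosphatase count in SD vs. 2% HS was 1 without SD replicate 1 and when all genes with more than 5 counts in total were kept. In MET+LEU vs. SD it was 1 when any of 2% HS replicate 2, SD replicates 4, 5 and 6 or MET+LEU replicates 2 and 3 was left out, with a replicate block and with the GC offset.

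Markers of other cells moved with the groups. The shares of all genes were again 13.9% higher and 13.9% lower in SD vs. 2% HS, and 10.6% and 7.8% in MET+LEU vs. SD. All 4 fibroblast markers were upregulated in SD vs. 2% HS, and their summed level was 543 to 637 CPM in 2% HS and 740.2 to 905 in SD. Most of that sum was Col1a1 (a mean of 563.8 of 590.5 CPM in 2% HS). Lum was at a low level (0.473 CPM in 2% HS, 2.04 in SD). Over the alternatives the lowest count of upregulated fibroblast markers was 3. Of 4 myoblast markers 2 were downregulated (Pax7 and Cdh15), with sums of 649.9 to 706 and 497 to 592 CPM. Of 6 myotube markers 1 was higher (Des) and 3 lower (Ckm, Atp2a1 and Ryr1). Both tested smooth muscle markers (Actg2 and Smtn) were lower, with sums over the list of 140.2 to 159 CPM in 2% HS and 119.7 to 141 in SD, while Myh11 and Myocd were near 0. Of 3 tested cardiac markers 1 was higher (Gata4) and 1 lower (Myh6), with sums of 31.6 to 36.3 and 26.4 to 34.4 CPM. Of the smooth muscle calls 1 was lost without 2% HS replicate 1, 4 or 5 or SD replicate 4, 5 or 6, with all genes over 5 counts in total and in a fit of only those groups. Of the cardiac calls 1 was lost without 2% HS replicate 1 or 3 or SD replicate 1, and both without SD replicate 2. Against SD, all 4 markers of cycling cells were downregulated in MET+LEU, with sums of 106 to 135 CPM in MET+LEU and 139 to 202 in SD. The same comparison had 1 fibroblast marker higher (Dcn) and 1 lower (Col1a1), 2 myotube markers lower (Ryr1 and Atp2a1), 1 myoblast marker lower (Cdh15), 1 cardiac marker higher (Myh6, not called in a fit of only those groups) and 1 smooth muscle marker lower (Smtn). The myotube calls ended when SD replicate 1, 2 or 3 or MET+LEU replicate 4 or 6 was left out, and 1 was left without MET+LEU replicate 1 or 5. The smooth muscle call ended without SD replicate 1, 2, 3 or 5 or MET+LEU replicate 1, 2 or 6, and a second was added without SD replicate 6. Both sets of calls also ended with limma-voom, with all genes over 5 counts in total and in a fit of only those groups, and the smooth muscle call ended with the GC offset, which left 1 myotube call. The part of these shifts in the changes of Myl2, Myl9, Myl6b, Mylk4 and Myl1 was not tested.

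The genes whose log2 CPM followed each member most closely over the 30 libraries are given as a description. The points share libraries and group differences. The slow heavy chain Myh7 was closest to Myl2 (Pearson's r = 0.932, or 0.637 after group means were removed), followed by the M-band gene Myom3 (0.883) and calsequestrin Casq1 (0.88). Igfbp5 (0.972, or 0.772 within groups), Amotl1 (0.968) and Zbtb18 (0.963) were closest to Mylk4. For Myl9 they were Glul (0.933, or 0.615 within groups), Bmp6 (0.923) and Sgcb (0.921), and for Myl6b Myom3 (0.896, or 0.623 within groups), sarcolipin Sln (0.893) and Pygm (0.887). The genes named depended on the measure. By Spearman's rank correlation, Myh7 (0.91), Igfbp5 (0.879) and Myom3 (0.851) stayed first for Myl2, Mylk4 and Myl6b. For Mylk4, Cdc42bpa (0.879) and Vldlr (0.863) replaced Amotl1 and Zbtb18. For Myl9 all 3 were replaced, by Cnn3 (0.855), Crat (0.814) and Kbtbd12 (0.808).

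Among the other members, Mylpf was closest to the ribosomal protein gene Rpl8 (0.927, or 0.922 within groups), desmin Des (0.915) and Kif1c (0.91). Myl4 was closest to Gpx4 (0.936, or 0.935 within groups), the slow troponin Tnni1 (0.908) and Pink1 (0.862). Myl1 was closest to Rps25 (0.885, or 0.731 within groups), Rpl7 (0.865) and Cox6b1 (0.863), and Myl6 to Scarna13 (0.921, or 0.923 within groups), Rpl32 (0.888) and Golga2 (0.879). Mylk2 had the weakest likeness, with Cdkn2d at 0.708 (0.739 within groups), Acbd4 at 0.66 and Hras at 0.643. By Spearman's rank correlation, Tomm7 (0.894) came first for Myl6 and Acbd4 (0.703) for Mylk2, while Rpl8, Gpx4 and Rps25 stayed first.

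**Figure D5:**
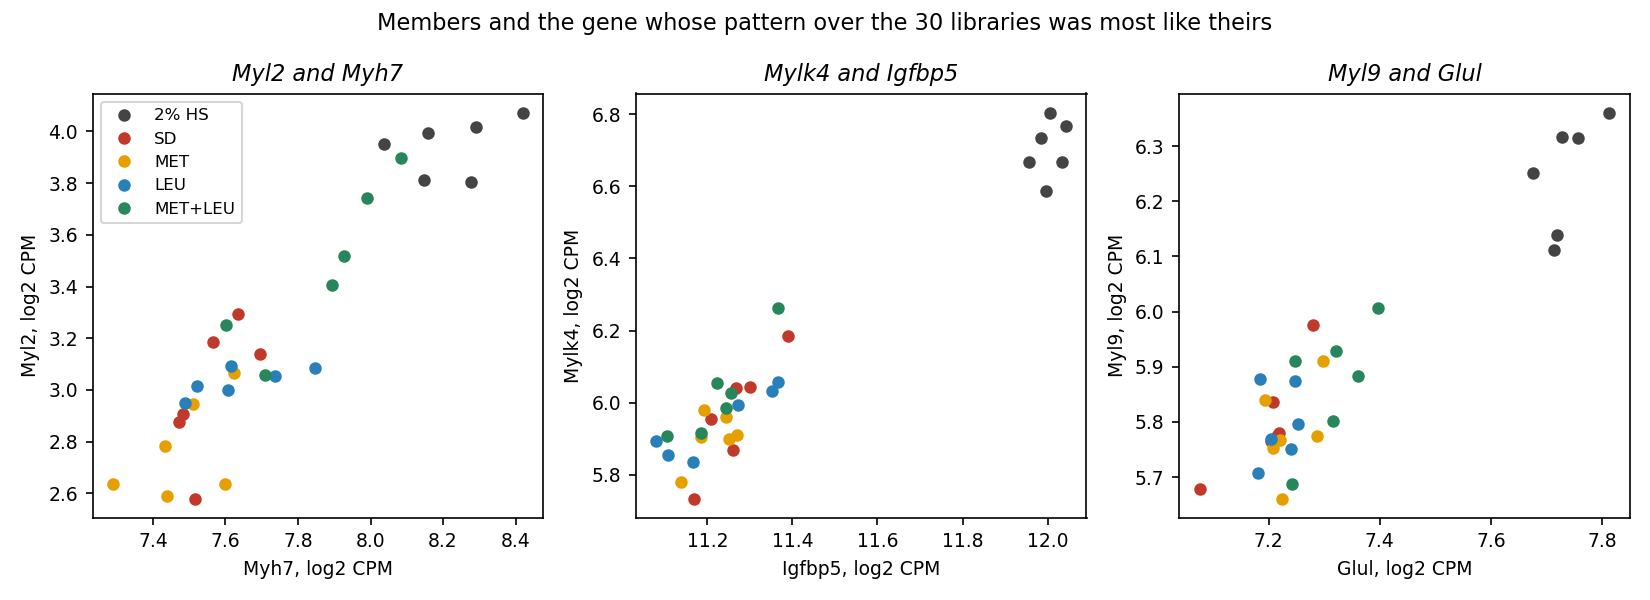
Log2 CPM of Myl2, Mylk4 and Myl9 against the gene most like each by Pearson correlation (Myh7, Igfbp5 and Glul), 1 point a library, colored by group. For Mylk4 and Myl9 the 2% HS libraries stand apart from the serum-free ones, and r over the 24 serum-free libraries was 0.764 and 0.646, while for Myl2 the MET+LEU libraries fill the space between SD and 2% HS and r over those 24 was 0.865.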

How the data were processed

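RNA-sequencing of C2C12 myotubes in 5 groups of 6 libraries was analysed. Per the submitters' processing notes, reads were handled with cutadapt 1.16, STAR 2.7.6a and featureCounts 1.6.3 on GRCm38, with DESeq2 1.30.1 also named. The annotation release and strand setting are not given in the sources used here. The authors deposited raw counts per Ensembl gene from ribosomal RNA-depleted, stranded libraries, and these were used unchanged. Identifiers matched GENCODE M21 for 55227 of 55487 genes. Genes were filtered with filterByExpr (minimum count 10, minimum total 15), scaled by TMM and tested in R 4.3.3 with edgeR 4.0.16 (quasi-likelihood, robust, 1 mean per group, all 30 libraries), with Benjamini-Hochberg adjustment over 15907 genes. The standard error is the absolute log2 fold change divided by the square root of F. CPM per kilobase used merged exon lengths. Similar genes were found by Pearson correlation of log2 CPM (prior count 2), and the 3 highest are named for each member. From related lists, up to 3 called genes with the largest change are named, with some others beside them. A list of related genes is not reported here. The members and lists were chosen with earlier results of these data known. Alternatives used DESeq2 1.42.0 and limma 3.58.1, other filters, scalings and lengths, a GC offset, a replicate block and each library left out. The principal transcript length was added after seeing the data. The fit was tested on simulated data. No pair of libraries of a group was a duplicate. Depth was 12784960 to 19604103 counts per library.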

Additional observations from a re-analysis of the deposited data

Results flagged for a closer look

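Myl6 in MET replicate 2 stood apart from the other 5 MET libraries, at 155 CPM against 189 to 204. The gap to its nearest neighbor was 0.688 of the group's range, above the critical value of 0.625 for 6 libraries. This was the only such library among 45 combinations of a gene and a group examined, and chance alone marks about 1 group in 20.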

How the results depend on the processing

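For 62 fold changes of the members, up to 41 alternatives each gave 2451 values of the same direction and side of the threshold, 31 that lost a call, 10 that gained one and 48 of opposite sign. Each sign change was in a fold change or ratio that was not called. The count of members called in LEU vs. SD was 1 with limma-voom and 1 in a fit of only those groups, and in MET+LEU vs. SD it was 4 with the GC offset. With single libraries left out the interaction count ran from 0 to 1. Replicate numbers did not pair the libraries (mean correlation of deviations 0.016 for the same number, -0.003 for different ones, lowest -0.091). With the number as a block the interaction called 1 member (Myl2, 0.71, adjusted p = 0.0338), while the other counts of members called stayed within 1.5 times. The cause of these changes was not tested. By log2 fold change, limma-voom gave Myl9 0.0091 (MET vs. SD) and 0.0133 (LEU vs. SD), and Myl4 0.0106 (MET vs. SD) and 0.0331 (MET+LEU vs. 2% HS). The GC offset gave Myl9 0.0086 (MET vs. SD) and 0.0112 (LEU vs. SD), and Mylk2 0.0298 (MET+LEU vs. SD) and 0.0396 (MET+LEU vs. 2% HS). With all genes over 5 counts in total, Myl4 was 0.0024 in MET+LEU vs. 2% HS.

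With each library left out, Myl4 ran from -0.0853 to 0.0002 (SD vs. 2% HS), -0.057 to 0.0285 (MET vs. SD), -0.028 to 0.0575 (LEU vs. SD), -0.0078 to 0.0947 (MET+LEU vs. SD) and -0.0452 to 0.0589 (MET+LEU vs. 2% HS). Mylpf ran from -0.0141 to 0.0743 (MET vs. SD) and -0.0691 to 0.0192 (LEU vs. SD). Myl9 ran from -0.0471 to 0.0179 (MET vs. SD) and -0.0324 to 0.0297 (LEU vs. SD). Myl1 ran from -0.0028 to 0.0628 (MET vs. SD). In LEU vs. SD, Myl2 ran from -0.0593 to 0.0773, Mylk4 from -0.0734 to 0.0149 and Mylk2 from -0.007 to 0.0552. Mylk2 in MET+LEU vs. 2% HS ran from -0.0473 to 0.0176. The MET+LEU vs. SD log2 ratio of Myl6b over Myl6 ran from -0.14 to 0.0232 and that of Myl9 over Mylpf from -0.0751 to 0.0019. Myl3, with 35 counts summed over all libraries, was left without a test. Myl2, with as few as 76 counts in a library, had a wider standard error than the other 8 tested members.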

Other observations

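The spread within groups differed between members and groups. The coefficient of variation of Myl2 was 3.83% in LEU and 21.7% in MET+LEU, and that of Mylpf was 1.94% in LEU, 10.3% in MET+LEU and 12.5% in SD. After group means were removed, Mylpf and Myl4 varied together over the 30 libraries (Pearson's r = 0.911), as did Myl1 and Myl4 (0.781) and Mylpf and Myl1 (0.728). Mylk4 did not follow Mylpf (0.014). Myl6 ran against Mylk4 (-0.437) and Myl6b (-0.275). These are descriptions over libraries that share depth and composition. In coding sequence, Myl1 had its highest share of identical aligned columns with Myl6 (74.0%), and gap columns count in that share. The Myl1 transcript used has 450 coding bases, near the 453 of Myl6, while Myl4 has 579 and Myl3 612. In identical bases Myl1 had more with Myl4 (349) and Myl3 (340) than with Myl6 (336), so the order depends on how gaps are counted. Myl3 was most like Myl4 (73.2%) and Myl6b (67.3%).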
